A study of Mus musculus with 16 samples.

Results

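Genes that lie beside Fcgr2b on mouse chromosome 1 and are not immune receptors were measured in kidney RNA of 16 mice. The 10 genes, in their order from Fcgr2b, were Cfap126, Pcp4l1, Nr1i3, Tomm40l, Apoa2, Adamts4, Dedd, Usf1, F11r, and Itln1. They were 10 of the 22911 named genes on the array and had 17 of its 56605 probes. The genes were chosen by their position, after the log2 levels of Cfap126 and Itln1 had been seen to differ between Fcgr2b-/- and wild-type kidneys on these same arrays, so every difference of the 10 genes between those groups is given here as a description, with no test. Of the 17 probes, 16 cleared the background on 4 or more of the 16 arrays and entered the tests, which gave each gene a tested probe and 6 genes a pair of them. The probe left out was the dimmer probe of Nr1i3, which was not above background on any array.

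RNA came from whole kidneys of mice labelled 6 months old, 1 mouse per array, with 4 mice in each of 4 groups. The wild-type mice and the Sting gt/gt mice, which carry the Goldenticket allele that acts as a functional knockout of STING, have the strain label C57BL/6. The Fcgr2b-/- mice, whose labels call them lupus mice, and the double-deficient Fcgr2b-/-.Sting gt/gt mice have the strain label 129/C57BL/6. The study's heatmaps head the single-deficient columns Fcgr2b-/-.Sting wt/gt, whereas the labels name the Fcgr2b deletion alone. Per the methods, the Fcgr2b deletion was carried on a mixed 129/C57BL/6 background, the double-deficient mice came from a cross of both lines, and the wild-type mice were purchased. Fcgr2b genotype and strain label run together in all 16 mice, so their parts in any difference below cannot be told apart. In whole-kidney RNA, fewer cells of a type and less RNA per cell cannot be told apart either. The paper states that the kidneys were not perfused, so RNA of blood cells and of cells in the kidney tissue cannot be told apart.

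Fcgr2b encodes the inhibitory receptor for IgG on B cells and myeloid cells. Genes close together on a chromosome are inherited together, and a mouse made by gene targeting and then backcrossed keeps sequence of the donor strain around the targeted gene longest. The 10 genes do unrelated work. Cfap126, also called Flattop, is a protein of motile cilia and their basal bodies. Itln1 (a lectin that binds microbial sugars), Apoa2 (a major protein of high-density lipoprotein), and Adamts4 (a protease that cuts cartilage proteoglycan) are secreted. Usf1 is a transcription factor that binds the E-box, and Nr1i3 is the constitutive androstane receptor, which switches on drug-metabolizing enzymes in liver. F11r is a junctional adhesion molecule of epithelia, Pcp4l1 is a relative of the calmodulin-binding peptide PEP-19, Tomm40l is a relative of the protein import channel of mitochondria, and Dedd carries a death effector domain.

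The promoters of Cfap126, Apoa2, and Itln1 are shown because these genes held the 3 widest differences between double-deficient and Sting gt/gt kidneys. That order is by the measured means of any tested probe, and it rests on the dimmer probe of Apoa2. The brighter Apoa2 probe differed by -0.17, less than Nr1i3 at -1.46, and the Itln1 difference is a bound, as given below. RefSeq promoter windows (build GRCm38.p6, 300 bases that span a listed start and lie mostly before it) were found for 8 of the 10 genes. Tomm40l and Adamts4 were not among them. The windows were searched on both strands for the E-box CACGTG, which Usf1 binds, and the forkhead motif GTAAACA, and a match is in capitals.
Cfap126, chr1:171113736-171114035, plus strand: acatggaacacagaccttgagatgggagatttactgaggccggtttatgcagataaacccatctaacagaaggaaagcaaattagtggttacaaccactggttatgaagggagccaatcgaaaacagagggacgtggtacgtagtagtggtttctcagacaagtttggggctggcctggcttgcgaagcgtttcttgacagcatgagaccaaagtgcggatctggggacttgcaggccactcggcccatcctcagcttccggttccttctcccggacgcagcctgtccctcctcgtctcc
Apoa2, chr1:171224804-171225103, plus strand: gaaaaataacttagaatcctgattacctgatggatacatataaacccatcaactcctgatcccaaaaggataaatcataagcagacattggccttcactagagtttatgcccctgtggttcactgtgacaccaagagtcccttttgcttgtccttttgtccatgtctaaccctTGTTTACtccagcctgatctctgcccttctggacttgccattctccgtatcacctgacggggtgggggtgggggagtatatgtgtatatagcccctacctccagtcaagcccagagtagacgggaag
Itln1, chr1:171535245-171535544, minus strand: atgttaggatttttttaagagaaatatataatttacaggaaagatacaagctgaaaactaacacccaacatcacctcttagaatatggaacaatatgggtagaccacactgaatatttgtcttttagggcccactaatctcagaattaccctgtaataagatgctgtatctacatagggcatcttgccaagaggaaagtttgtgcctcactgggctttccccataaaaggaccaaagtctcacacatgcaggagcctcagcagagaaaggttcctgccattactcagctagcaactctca
The windows shown for Cfap126 and Itln1 held neither motif, and that of Apoa2 held the forkhead motif on the opposite strand. The E-box lay in the window of another listed start of Cfap126 and in that of Nr1i3. Of all 32851 promoter windows, 7.15% held the E-box and 3.65% the forkhead motif, and the reference sequence is that of C57BL/6J, not of the 129 strain.

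Levels are given as log2 of the processed signal minus the 75th percentile of the array, so a probe at 0 is as bright as that percentile and 1 unit is a 2-fold change. Fcgr2b itself was the check on the labels. Its brighter probe gave 2.13, 1.91, 1.60, and 1.14 in wild-type kidneys and 0.70, 0.02, 0.06, and 0.19 in Fcgr2b-/- kidneys, without overlap. It gave -0.04, 0.50, -0.40, and -0.24 in double-deficient kidneys and 1.54, 1.05, 0.70, and -0.19 in Sting gt/gt kidneys, where replicate 4 lay within the double-deficient range. The difference was -1.45 (SE 0.35, adjusted p 0.385 by limma) in Fcgr2b-/- against wild-type and -0.82 (SE 0.35, adjusted p 0.885) in double-deficient against Sting gt/gt kidneys. Both Fcgr2b probes stayed above background on all 16 arrays, and whether they lie in the deleted part of the gene is not given in the sources used here. Kidney segment markers (Nphs1, Slc34a1, Umod, and 7 others) were measured by 10 of 10 genes, with a summed log2 level of 8.87 to 10.03 over the 16 arrays. The number of probes above background on an array ran from 28441 to 35564, and no spot was saturated.

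Cfap126 was low on all 8 Fcgr2b-deficient arrays. Its brighter probe gave 1.39, 2.54, 2.60, and 2.24 in wild-type kidneys and -0.37, -0.25, -0.85, and 0.34 in Fcgr2b-/- kidneys. It gave -0.13, -0.58, -0.12, and -0.77 in double-deficient kidneys and 1.67, 1.42, 2.33, and 0.79 in Sting gt/gt kidneys. The highest of the 8 deficient values, 0.34, lay below the lowest of the 8 others, 0.79. The group means ran from 2.19 ± 0.56 (SD, n = 4) in wild-type through 1.55 ± 0.64 in Sting gt/gt to -0.28 ± 0.49 in Fcgr2b-/- and -0.40 ± 0.33 in double-deficient kidneys. Wild-type and Sting gt/gt arrays overlapped, and so did those of the Fcgr2b-/- and double-deficient groups.

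The Fcgr2b-/- mean of Cfap126 differed from the wild-type mean by -2.47 on the log2 scale, a 5.55-fold lower level. The comparison of double-deficient with Sting gt/gt kidneys takes its means from 8 arrays outside the comparison that chose the genes, while the spread was estimated over all 16 arrays. There the difference was -1.95 (SE 0.36, 95% interval -2.72 to -1.18), a 3.86-fold lower level. It ranked 2 of 35628 probes by its p-value, yet the adjusted p was 0.885 (limma, Benjamini-Hochberg over 35628 probes), so Cfap126 was not called. With single arrays left out, the difference stayed between -2.20 and -1.69, and the -2.20 was without Sting gt/gt replicate 4. Within slide 1, with 1 array against 2, it was -1.67, and within slide 2, with 3 against 2, it was -2.05.

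The dimmer Cfap126 probe gave the same picture. Its values followed the brighter probe over the 16 arrays (Pearson r = 0.99, a description), and its difference was -2.43 between Fcgr2b-/- and wild-type and -1.66 (SE 0.42, adjusted p 0.885) between double-deficient and Sting gt/gt kidneys. On the dimmer probe 7 of the 8 deficient arrays lay below all 8 others, and Fcgr2b-/- replicate 4 at -1.48 lay above Sting gt/gt replicate 4 at -1.85. Of 37 other genes of motile cilia (axonemal dyneins, radial spokes, and their regulators), 28 were tested and 0 were called in double-deficient against Sting gt/gt kidneys by limma. At an unadjusted p under 0.05, 2 of them were higher and 0 lower, and 0 passed the exact Mann-Whitney test with a 2-fold change. Of the 28, 10 read higher and 18 lower, and their median was -0.11, beside 0.01 over all probes tested. The 3 widest differences were those of the outer-arm dynein Dnah5, which gave 1.33 (SE 0.53), the dynein assembly factor Zmynd10, with 1.02 (SE 0.48), and the axonemal protein Cfap43, with 0.87 (SE 0.33), at an adjusted p of 0.885 each by limma.

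**Figure D1:**
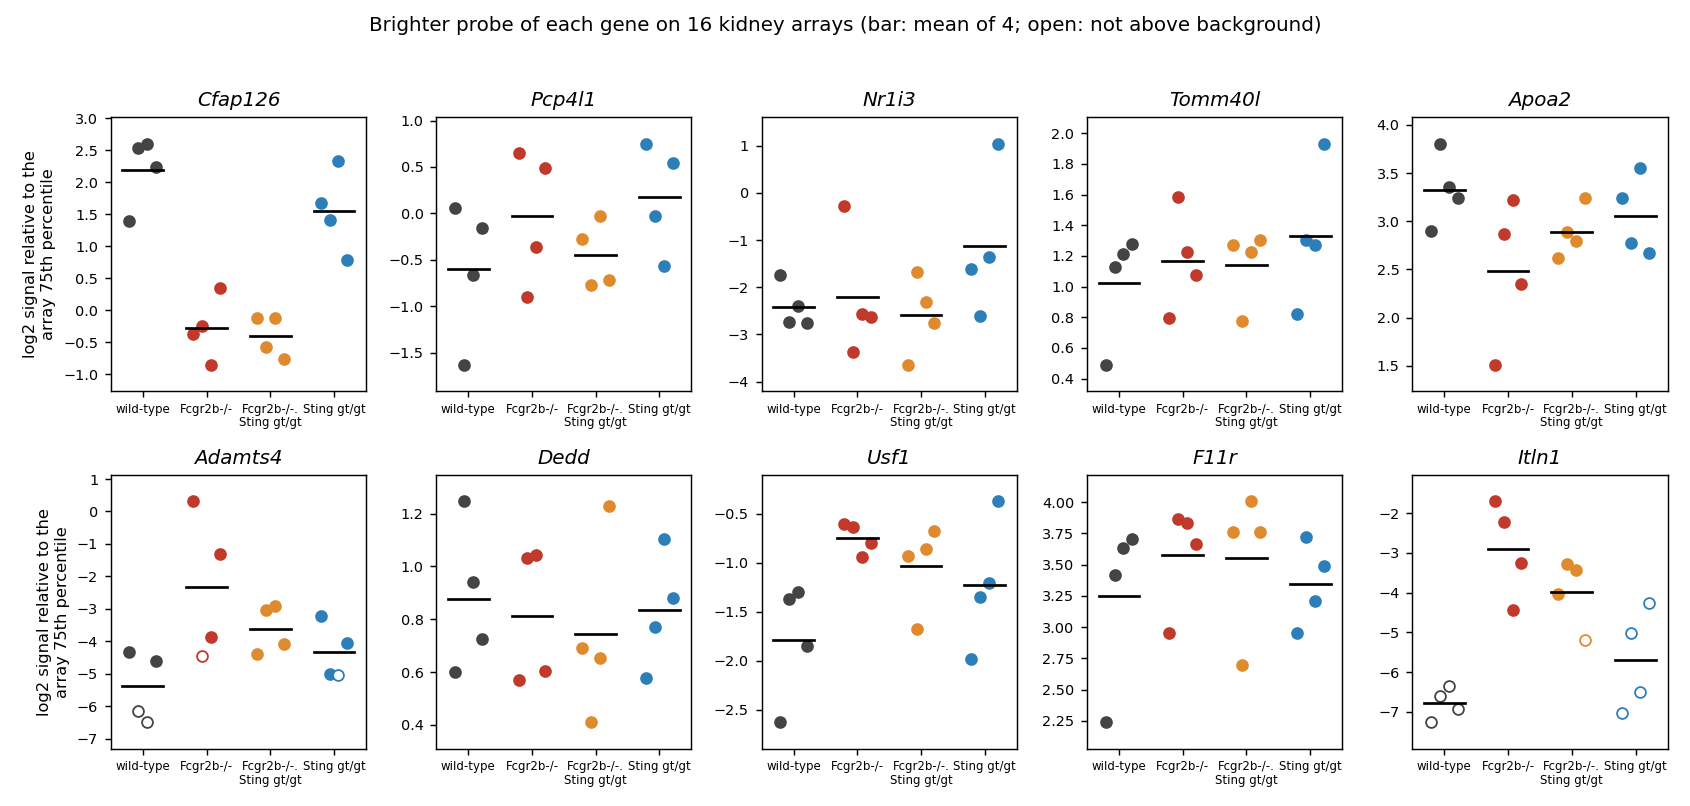
Brighter probe of each of the 10 genes on every array, as log2 signal relative to the array's 75th percentile on an axis of its own for each gene; points are mice, bars are means of 4, and open points are arrays where the probe was not above background. Cfap126 lies lower on all 8 Fcgr2b-deficient arrays, and Itln1 is above background on 7 arrays, all of them Fcgr2b-deficient.

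Itln1 was above background on Fcgr2b-deficient arrays only. Its single probe was above background on 4 of 4 Fcgr2b-/- and 3 of 4 double-deficient arrays, and on 0 of 4 wild-type and 0 of 4 Sting gt/gt arrays. The Fcgr2b-/- values were -1.70, -2.23, -4.44, and -3.24, and the double-deficient values -4.03, -3.27, -3.42, and -5.20, the last not above background. Wild-type arrays read -7.26 to -6.35 and Sting gt/gt arrays -7.02, -5.01, -6.50, and -4.27, none of them above background. The highest of these Sting gt/gt readings overlapped the double-deficient range.

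Because 2 groups gave no signal above background, the difference is a bound, taken against the lowest signal of any probe above background on each array, or the Itln1 signal where that was higher. Itln1 was at least 3.63-fold higher in Fcgr2b-/- than in wild-type kidneys, from a mean of -2.90 against a limit of -4.76. It was at least 1.60-fold higher in double-deficient than in Sting gt/gt kidneys, from a mean of -3.98 against a limit of -4.66, where that mean takes in the double-deficient array that was not above background. The measured means of the latter comparison lay 1.72 apart, with an adjusted p of 0.885 by limma, so Itln1 was not called. The probe entered the tests only through arrays of the groups where it was high, so no interval is given. Within slides the means lay 1.98 and 1.42 apart. With background correction by normexp the means of that comparison lay 0.43 apart on the log2 scale, less than its bound of 0.68. Under the same correction Fcgr2b-/- and wild-type means lay 1.09 apart, less than their bound of 1.86. Both bounds therefore hold for the main processing only. Background knowledge holds that 129 strains carry further intelectin genes that C57BL/6 lacks, and whether this probe tells the copies apart was not tested, since the files give no probe sequences.

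Of 10 other intelectin and secretory-epithelium genes, 3 were tested, and 0 were called by limma in double-deficient against Sting gt/gt kidneys. None of the 3 passed at an unadjusted p under 0.05 (0 of 3) or by the Mann-Whitney test with a 2-fold change (0 of 3). The lysozyme gene Lyz1 gave 1.04 (SE 0.74), the mucus protein gene Fcgbp -1.03 (SE 0.65), and Spink4 -0.19 (SE 0.51). In Fcgr2b-/- against wild-type kidneys Lyz1, a near copy of the macrophage lysozyme gene Lyz2, gave 3.04, Lyz2 itself 3.21, Fcgbp 0.27, and Spink4 -0.60. Leukocyte markers (Ptprc, Cd68, Lyz2, and 11 others, 14 of 14 tested) had 6 genes higher and 0 lower at an unadjusted p under 0.05 by limma in Fcgr2b-/- against wild-type kidneys. Of all 35628 probes, 939 were higher and 253 lower there. In double-deficient against Sting gt/gt kidneys 1 leukocyte marker was higher and 0 lower (Lyz2, at 1.75, SE 0.80), beside 580 and 505 of all probes. The summed log2 level of the leukocyte markers ran from 5.92 to 6.61 in wild-type, 6.04 to 7.33 in Fcgr2b-/-, 5.90 to 6.67 in double-deficient, and 6.09 to 8.03 in Sting gt/gt kidneys. The highest sum, 8.03 in Sting gt/gt replicate 4, fell on the Sting gt/gt array with the highest Itln1 reading, and the part of leukocytes in the Itln1 values was not tested.

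Apoa2 gave different answers on its 2 probes. The brighter probe read 2.90 to 3.80 in wild-type, 1.51 to 3.23 in Fcgr2b-/-, 2.62 to 3.24 in double-deficient, and 2.67 to 3.55 in Sting gt/gt kidneys, with overlap between all groups. The dimmer probe read 0.28, 1.29, 1.29, and 1.01 in wild-type and 1.65, -0.09, 0.67, and -0.46 in Sting gt/gt kidneys. It read -6.82, -1.72, -3.36, and -3.05 in Fcgr2b-/- kidneys and -1.64, -3.15, -1.60, and -3.99 in double-deficient kidneys. On the dimmer probe all 8 deficient arrays thus lay below all 8 others, and the lowest, Fcgr2b-/- replicate 1, was not above background.

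Between double-deficient and Sting gt/gt kidneys, the brighter Apoa2 probe differed by -0.17 (SE 0.34, 95% interval -0.90 to 0.56). The dimmer probe differed by -3.04 (SE 0.86, 95% interval -4.86 to -1.21), an 8.20-fold lower signal, with an adjusted p of 0.885 by limma. That difference ranked 25 of 35628 by p-value and 10 by size. In Fcgr2b-/- against wild-type kidneys the brighter probe read -0.84 and the dimmer -4.70. Without Fcgr2b-/- replicate 1, where the dimmer probe was not above background, they read -0.51 and -3.68. Both probes carry the same transcript name in the files. Inbred strains are known to differ in the Apoa2 protein sequence, and whether the dimmer probe covers such a site was not tested. Within slides the dimmer probe differed by -2.42 and -3.02, and without Sting gt/gt replicate 4 by -3.34.

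The other lipoprotein genes gave no call. Of 16 genes for apolipoproteins and their partners, 12 were tested and 0 were called by limma in double-deficient against Sting gt/gt kidneys, and neither an unadjusted p under 0.05 (0 of 12) nor the Mann-Whitney test with a 2-fold change (0 of 12) picked any. Their median was -0.20, with Apom, a lipocalin carried on high-density lipoprotein, at 1.10 (SE 0.67), the lipid transfer protein gene Pltp at -0.79 (SE 0.61), and Apoh at 0.72 (SE 3.0). Liver markers were measured by 9 of 10 genes, with a summed log2 level of 5.58 to 8.86 in wild-type, 4.68 to 8.38 in Fcgr2b-/-, 5.66 to 8.77 in double-deficient, and 4.71 to 8.56 in Sting gt/gt kidneys. Apoa1, the partner of Apoa2 in high-density lipoprotein, was above background on 1 of 16 arrays. Cyp2e1 of that list, above background on 16 arrays, had means of 6.17 in double-deficient and 4.29 in Sting gt/gt kidneys, a large part of these sums. Whether the sums reflect liver RNA was not tested. The liver sums overlapped between all groups, and the part of liver RNA in the Apoa2 values was not tested.

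**Figure D2:**
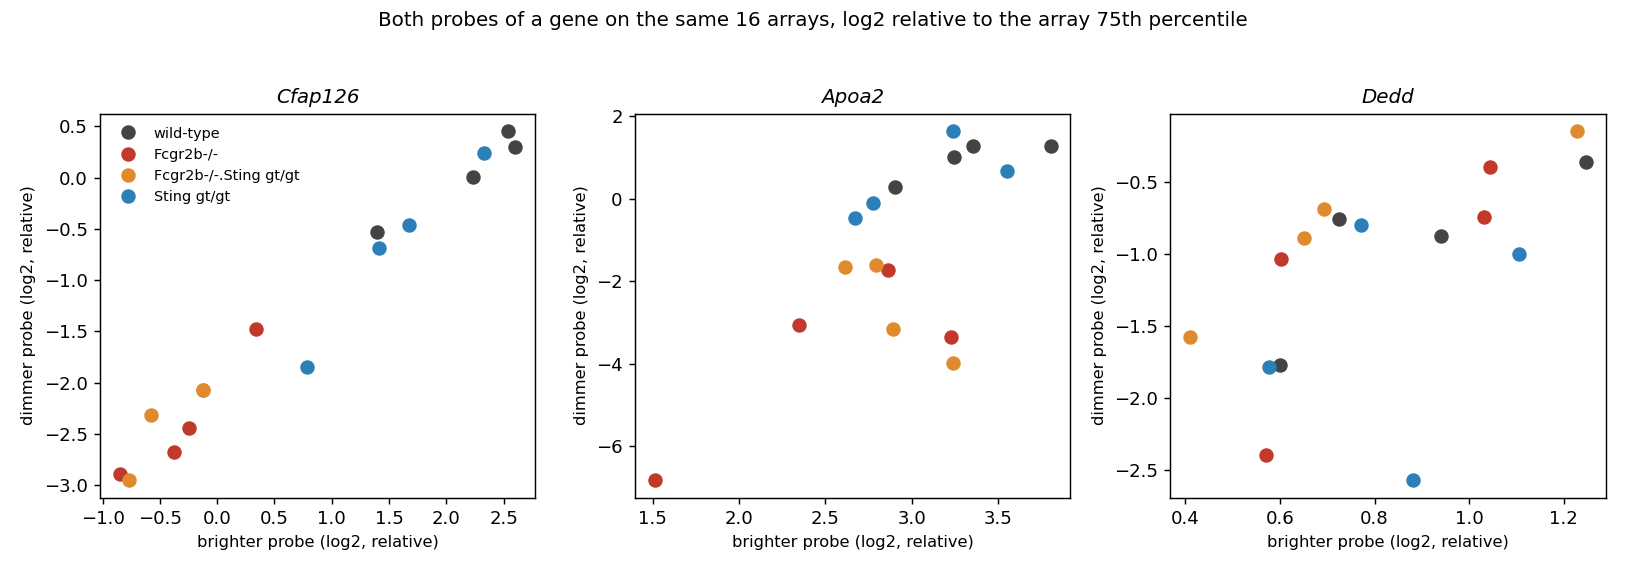
The brighter and the dimmer probe of Cfap126, Apoa2, and Dedd on the same 16 arrays, both as log2 signal relative to the array's 75th percentile; each point is a mouse, coloured by genotype. The Cfap126 probes rise together, whereas the Apoa2 probes separate the 8 deficient arrays on the dimmer probe and not on the brighter.

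Adamts4 was dim and uneven. It was above background on 2 wild-type, 3 Fcgr2b-/-, 4 double-deficient, and 3 Sting gt/gt arrays. Fcgr2b-/- values were 0.31, -4.44, -3.86, and -1.31, so replicates 1 and 4 stood high in their group. Wild-type values were -4.34, -6.13, -6.49, and -4.60, and the group means lay 3.07 apart. Double-deficient kidneys read -4.40 to -2.93 and Sting gt/gt kidneys -5.05 to -3.22, with overlap. Their difference was 0.73 (SE 0.87, 95% interval -1.12 to 2.58, adjusted p 0.890 by limma) and became 1.10 without Sting gt/gt replicate 1. It was -0.28 within slide 1 and 1.21 within slide 2.

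The Fcgr2b-/- arrays where Adamts4 stood high, replicates 1 and 4, also had the 2 highest leukocyte sums of that group, 7.33 and 6.92, and the part of leukocytes in the Adamts4 values was not tested. Of 16 related genes, the other ADAMTS proteases and their inhibitor Timp3, 12 were tested and 0 were called by limma in double-deficient against Sting gt/gt kidneys. None passed at an unadjusted p under 0.05 (0 of 12) or by the Mann-Whitney test with a 2-fold change (0 of 12). Their median was -0.51, against 0.01 over all probes. Adamts8 gave -1.69 (SE 1.27), Adamts7 -0.76 (SE 0.53), and the procollagen protease Adamts2 -0.66 (SE 0.70). The same list had a median of 0.60 in Fcgr2b-/- against wild-type kidneys.

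The groups of Usf1 lay apart in Fcgr2b-/- against wild-type kidneys and overlapped in the other comparisons. Its brighter probe read -0.94 to -0.61 in Fcgr2b-/- and -2.63 to -1.30 in wild-type kidneys, without overlap, and the means lay 1.04 apart. Double-deficient values of -0.94, -1.68, -0.86, and -0.67 overlapped Sting gt/gt values of -1.98, -1.35, -1.21, and -0.37. That difference was 0.19 (SE 0.36, 95% interval -0.57 to 0.95, adjusted p 0.925 by limma), turned to -0.06 without Sting gt/gt replicate 1, and was 0.73 and -0.28 within the 2 slides. The dimmer Usf1 probe went the same way, by 0.70 and 0.48 in the respective comparisons, with 6 of 8 deficient arrays above all 8 others. Its difference in Fcgr2b-/- against wild-type kidneys was 0.31 without wild-type replicate 1, and that in double-deficient against Sting gt/gt kidneys was 0.75 without double-deficient replicate 2.

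Relatives of Usf1 gave no call. Of 14 E-box factors of the same family (Usf2, Tfeb, Myc, and others), 14 were tested and 0 were called by limma in double-deficient against Sting gt/gt kidneys, and neither an unadjusted p under 0.05 (0 of 14) nor the Mann-Whitney test (0 of 14) picked any. Tfeb, a regulator of lysosomal genes, gave 0.63 (SE 0.41), Myc 0.53 (SE 0.39), and Mlx 0.43 (SE 0.41). The median of the 14 was 0.05.

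Nr1i3 overlapped between the groups of every comparison. Its tested probe read -2.75 to -1.73 in wild-type, -3.38 to -0.27 in Fcgr2b-/-, -3.64 to -1.68 in double-deficient, and -2.61 to 1.04 in Sting gt/gt kidneys. Double-deficient and Sting gt/gt means differed by -1.46 (SE 0.73, 95% interval -3.01 to 0.09, adjusted p 0.885 by limma). Without Sting gt/gt replicate 4, which read 1.04, the difference was -0.73. The 2 arrays with the highest Nr1i3 values, Sting gt/gt replicate 4 and Fcgr2b-/- replicate 1, had the highest leukocyte sums, 8.03 and 7.33, and the lowest liver sums, 4.71 and 4.68, and the part of either in the Nr1i3 values was not tested. The Nr1i3 difference was 0.20 in Fcgr2b-/- against wild-type kidneys, and with single arrays left out it ran from -0.45 without Fcgr2b-/- replicate 1 to 0.59 without Fcgr2b-/- replicate 2.

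Enzymes and transporters known as targets of the receptor encoded by Nr1i3 gave no call. Of 18 genes, 13 were tested, with 0 called by limma in double-deficient against Sting gt/gt kidneys, 0 at an unadjusted p under 0.05, and 0 with the Mann-Whitney test with a 2-fold change. The export pump Abcc3 gave -1.42 (SE 1.76), the cytochrome Cyp2b9 0.82 (SE 2.65), and Cyp2c55 0.71 (SE 0.66). The median of the 13 was 0.30.

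F11r, Pcp4l1, Tomm40l, and Dedd overlapped between the groups of every comparison. F11r read 2.24 to 4.01 over the 16 arrays and differed by 0.21 (SE 0.37, 95% interval -0.57 to 1.0) between double-deficient and Sting gt/gt kidneys. Without double-deficient replicate 2, which read 2.69, that difference was 0.50. Pcp4l1 differed by -0.62 (SE 0.43, 95% interval -1.53 to 0.28) on its brighter probe and by 0.09 (SE 0.24) on its dimmer probe, and the probes did not follow each other over the 16 arrays (Pearson r = -0.18, a description). In Fcgr2b-/- against wild-type kidneys the brighter Pcp4l1 probe read 0.57, which moved between 0.23 without wild-type replicate 2 and 0.86 without Fcgr2b-/- replicate 2.

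Tomm40l differed by -0.19 (SE 0.28, 95% interval -0.78 to 0.40) on the brighter probe and by 0.20 (SE 0.34) on the dimmer, so the direction depended on the probe. Dedd likewise gave -0.09 (SE 0.24, 95% interval -0.60 to 0.42) on the brighter probe and 0.71 (SE 0.48, 95% interval -0.32 to 1.74) on the dimmer, the latter falling to 0.37 without Sting gt/gt replicate 4. The adjusted p of F11r and of both probes of Pcp4l1, Tomm40l, and Dedd was between 0.885 and 0.949 by limma. In Fcgr2b-/- against wild-type kidneys the brighter probes read 0.33 for F11r, 0.14 for Tomm40l, and -0.07 for Dedd. The F11r value ran from -0.01 without wild-type replicate 1 to 0.54 without Fcgr2b-/- replicate 1, and those of Tomm40l and Dedd also changed sign with single arrays left out. These intervals show how far from 0 a difference could lie at 4 mice a group, and they do not show that the groups were alike.

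The gene lists kept beside these members held no call. Of 18 tight junction and adhesion genes beside F11r, 18 were tested in double-deficient against Sting gt/gt kidneys, with 0 called by limma, 0 higher and 1 lower at an unadjusted p under 0.05, and 0 with the Mann-Whitney test with a 2-fold change. The lower gene, named after its value was seen, was Esam, an adhesion molecule of endothelium (-0.75, SE 0.27). Cldn2, which forms a paracellular pore of the proximal tubule, gave 1.27 (SE 0.64), the junctional protein gene Jaml -0.94 (SE 0.68), and Jam2 -0.84 (SE 0.69). The 8 subunits of the mitochondrial import complex beside Tomm40l gave a median of 0.17, with 0 called, 0 at an unadjusted p under 0.05, and 0 with the Mann-Whitney test. Tomm70a gave 0.67 (SE 0.40), Tomm20 0.36 (SE 0.27), and Tomm5 0.29 (SE 0.35).

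Among 10 death effector domain and caspase genes beside Dedd, 0 were called by limma, 1 was higher and 0 lower at an unadjusted p under 0.05, and 0 passed the Mann-Whitney test with a 2-fold change. Bid, a death agonist cut by caspase 8, gave 1.06 (SE 0.42), Casp6 0.63 (SE 0.33), and Casp8 0.46 (SE 0.28). Of 6 relatives and partners of PEP-19 beside Pcp4l1, 5 were tested and 0 called by limma, with 0 higher and 1 lower at an unadjusted p under 0.05 and 0 past the Mann-Whitney test. Neurogranin, Nrgn, gave -0.67 (SE 0.26), Pcp4 0.35 (SE 0.39), and Calm3 -0.20 (SE 0.25). Over the 10 lists together, 123 of 153 genes were tested, 3 higher and 2 lower at an unadjusted p under 0.05, where 1.63% and 1.42% of all probes lay.

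**Figure D3:**
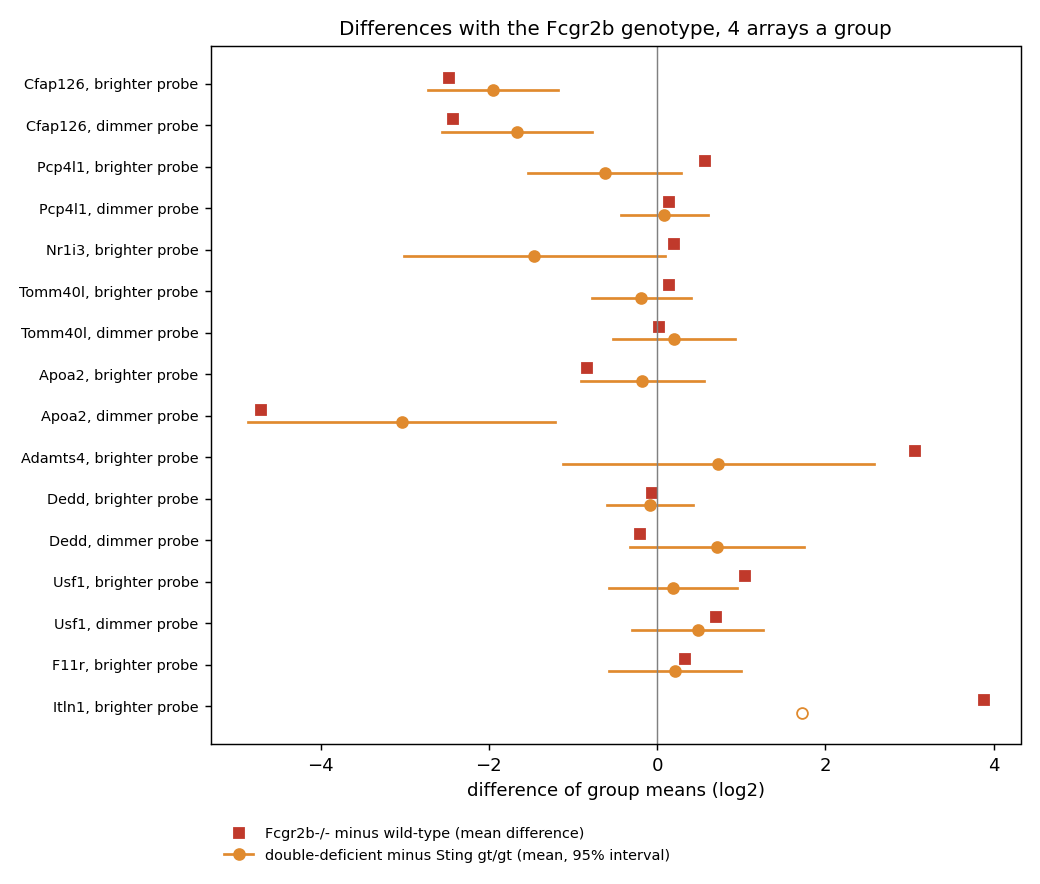
Difference of group means (log2) for each tested probe of the 10 genes in both comparisons across the Fcgr2b genotype; squares are Fcgr2b-/- minus wild-type, with no interval since that comparison chose the genes, and circles are double-deficient minus Sting gt/gt with the 95% interval. The interval lies off 0 for both Cfap126 probes and the dimmer Apoa2 probe, and the open circle of Itln1 has no interval, since its Sting gt/gt arrays were not above background.

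Counted over the 10 genes by their brighter probes, double-deficient against Sting gt/gt kidneys gave 0 calls at an adjusted p under 0.05 and 2-fold, where limma called 0 of 35628 probes (0%). At an unadjusted p under 0.05 there were 2 of 10, Cfap126 lower and Itln1 higher, beside 3.05% of all probes. Nothing is read from the part of Itln1, whose probe entered the tests only through Fcgr2b-deficient arrays. The measured means lay at least 2-fold apart for 3 of 10, Cfap126, Nr1i3, and Itln1, beside 4.88% of all probes, and for Itln1 the bound above is below 2-fold. The groups did not overlap for 1 of 10, Cfap126, beside 2.13%, and the exact Mann-Whitney test with a 2-fold change passed Cfap126 alone, beside 0.48%. The smallest p that test can give with 4 against 4 is 0.0286. The median of the 10 was -0.13 and that of all probes 0.01. In Fcgr2b-/- against wild-type kidneys 2 of 10, Cfap126 and Itln1, passed the same threshold as 0.0505% of all probes, which is how they came to be chosen. The groups of that comparison did not overlap for 3 of 10, Cfap126, Usf1, and Itln1, beside 1.24%, a count from which nothing is read for the same reason.

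None of the 10 genes passed the threshold in either comparison of mice with and without functional STING. Double-deficient against Fcgr2b-/- kidneys, which share the strain label 129/C57BL/6, gave 0 of 10 calls by limma (0% of all probes), 0 of 10 at an unadjusted p under 0.05 (1.81%), and 0 with the Mann-Whitney test with a 2-fold change (0.115%). A difference of at least 2-fold was found for 2 of 10 (3.4%), at -1.28 (SE 0.87) for Adamts4 and -1.08 (SE 0.65) for Itln1. Cfap126 differed by -0.12 (SE 0.36, 95% interval -0.89 to 0.65). The slides were uneven here, with 1 double-deficient array on slide 1 and 3 on slide 2, against 3 and 1 Fcgr2b-/- arrays. With slide as a block, 0 of 10 were called by limma. Sting gt/gt against wild-type kidneys, which share the label C57BL/6, gave 0 of 10 calls by limma (0% of all probes), 0 of 10 at an unadjusted p under 0.05 (3.76%), and 0 with the Mann-Whitney test with a 2-fold change (0.356%). A difference of at least 2-fold was found for 3 of 10 (7.2%), of which Itln1 was below background in both groups. Cfap126 differed by -0.64 (SE 0.36, 95% interval -1.41 to 0.13), Nr1i3 by 1.27 (SE 0.73), and Adamts4 by 1.06 (SE 0.87). These comparisons share the Fcgr2b-/- and the wild-type arrays with the comparison that chose the genes.

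The difference across the Fcgr2b genotype was also compared between mice with and without functional STING, as an interaction. It gave 0 of 10 calls by limma (0% of all probes) and 1 of 10 at an unadjusted p under 0.05, Itln1, beside 6.27% of all probes. The interaction takes in the arrays that chose the genes, and for Itln1 both groups without signal above background, so nothing is read from these counts. For Cfap126 the interaction was 0.52 (SE 0.51, 95% interval -0.57 to 1.61), and for Adamts4 it was -2.34 (SE 1.23).

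The stretch from Fcgr2b to Itln1 holds 27 protein-coding genes beyond Fcgr2b in the RefSeq order, the 10 described and 17 others. Gene order and gene distances given here count protein-coding genes only. Of the 17, 0 were called by limma in double-deficient against Sting gt/gt kidneys (0% of all probes). At an unadjusted p under 0.05 lay 1 of 17 (3.05% of all probes). The Mann-Whitney test with a 2-fold change passed 0 (0.48%). The lowest differences of the 17 were -1.04 (SE 0.76) for the adhesion molecule Nectin4, -0.67 (SE 0.28) for Ppox, an enzyme of heme synthesis, and -0.61 (SE 0.83) for Arhgap30. Among those that read higher, not all of which are reported, the Fc receptor chain gene Fcer1g gave 0.65 (SE 0.68) and Nit1 gave 0.27 (SE 0.48). Ppox, which has 2 probes and is given by its brightest tested probe, was the only gene whose groups did not overlap. That is 1 of 17, beside 2.13% of all probes. Cfap126 stood between Fcgr3 at 0.25 (SE 0.52) and Sdhc at -0.18 (SE 0.47), its nearest neighbours on either side, and the gene before Itln1, Alyref2, was at -0.08 (SE 0.23). Of the 100 protein-coding genes flanking the stretch, 65 were tested and 0 called by limma in that comparison. Means lay at least 2-fold apart for 13.8% of the 65, and groups did not overlap for 4.62%. For 790 genes of the rest of chromosome 1 the shares were 3.80% and 1.90%, and for all probes 4.88% and 2.13%.

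**Figure D4:**
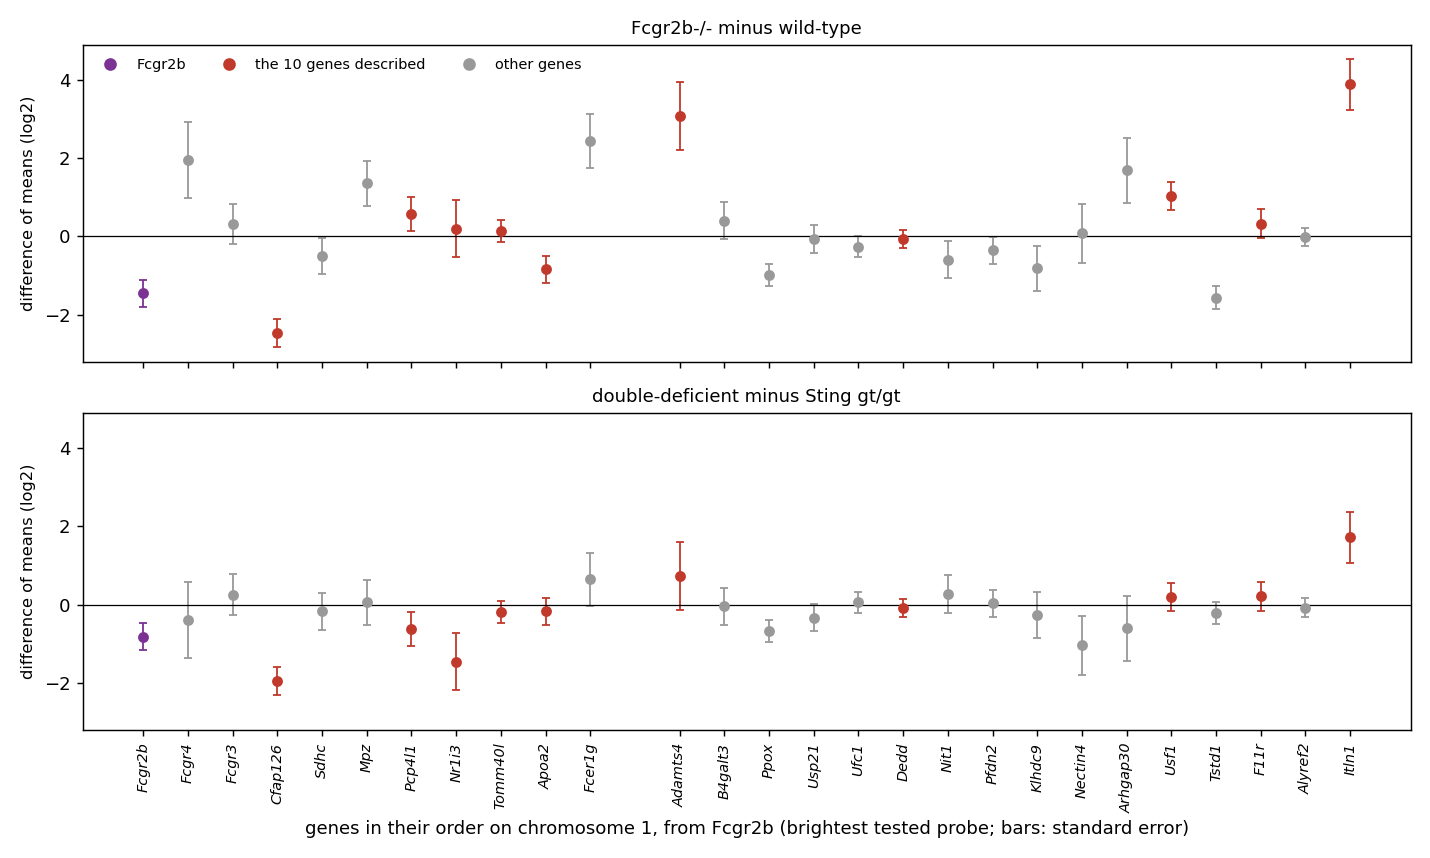
Difference of group means (log2) with its standard error for Fcgr2b and genes after it in chromosome order up to Itln1, by the brightest tested probe, in Fcgr2b-/- minus wild-type (upper) and double-deficient minus Sting gt/gt (lower) kidneys. In the lower panel Cfap126 is the lowest and Itln1 the highest, and the genes beside them lie near 0.

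Probes on which all 8 Fcgr2b-deficient arrays lay below all 8 others numbered 4 of 35628 (0.0112%), among them the brighter Cfap126 and the dimmer Apoa2 probe, and 21 (0.0589%) lay above. The wild-type and Fcgr2b-/- arrays among them chose the genes, so nothing is read from that count. The other 2 probes were that of Dusp23, a phosphatase gene 57 genes beyond Fcgr2b on the same side of chromosome 1, and a probe without a name. Among 16391 named genes, Dusp23 was also the most like Cfap126 over the 16 arrays (Pearson r = 0.91), with differences of -2.64 in Fcgr2b-/- against wild-type and -2.71 in double-deficient against Sting gt/gt kidneys.

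After Dusp23, the genes most like Cfap126 were Sdccag8, a centrosome gene 110 genes from Fcgr2b (r = 0.80), and Atf6, a sensor of endoplasmic reticulum stress 6 genes to the other side (r = 0.78). Most opposite were the interferon-inducible Ifi202b, 81 genes along (r = -0.85), the C-type lectin receptor gene Clec4e on another chromosome (r = -0.82), and Olfml2b, 7 genes to the other side (r = -0.81). For Itln1 the most alike were Ifi202b (r = 0.95), Acod1, the enzyme that makes itaconate (r = 0.85), and the formyl peptide receptor gene Fpr1 (r = 0.83). The most opposite to Itln1 were 3110045C21Rik (r = -0.91), Atf6 (r = -0.88), and Sdccag8 (r = -0.78). These values rest on 16 arrays of 4 genotypes, so they hold the difference between genotypes as well as that between mice, and they are a description.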

How the data were processed

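RNA of 16 kidneys, 100 ng each, was hybridised to one-colour Agilent arrays. Per the labels, the authors extracted spots with Agilent Feature Extraction 11.0 (named in the submitters' processing notes) and deposited processed signals in linear intensity units. A series table deposited by the authors holds log2 values of the same arrays, whose exact scaling was not given in the sources used here, and served as an alternative. Control and outlier spots were dropped, spots of a probe averaged, and the log2 processed signal of a probe reduced by the array's 75th percentile over probes. Probes above background on at least 4 arrays (35628) were fitted with a mean per genotype in limma 3.58.1 (R 4.3.3, statmod 1.5.0), with a call needing a 2-fold difference and an adjusted p (Benjamini-Hochberg) under 0.05. The fit was tested on simulated data. The study's methods name a two-tailed Mann-Whitney test, which was run as an exact alternative, here with an unadjusted p (Python 3.11.15, pandas 2.3.3, numpy 2.4.6, scipy 1.17.1). Replicates are separate mice. The limma p-values rest on the spread between mice within groups, estimated for each probe over all 16 arrays and moderated over all probes. The Mann-Whitney p-values rest on the ranks of 4 mice against 4. Arrays give no read depth, and the number of arrays limits the precision. No column of values was left unmapped (0).

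Probes were named through their transcript accessions in RefSeq (GRCm38.p6), which gave 32994 of 56605 probes a gene. The build of the array design was not given in the sources used here. Genes are given by the tested probe with the highest mean signal, and for the 10 genes a second probe is given beside it. The genes and lists were chosen with earlier results of these data known. Of other genes, the text names the 3 highest and 3 lowest of the stretch (1 gene is not reported here), the 3 of each list with the largest absolute difference in double-deficient against Sting gt/gt kidneys, and the 3 most and least correlated with Cfap126 and Itln1. Where both groups of a probe lacked signal above background no fold is given, and where 1 did the fold is a bound against the lowest signal above background. The alternatives were other scalings, normexp background correction, other filters, the authors' table, slide or replicate number as a block, only the groups compared, another moderation, the median of a gene's probes, no fold threshold, and each array left out.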

Additional observations from a re-analysis of the deposited data

Results flagged for a closer look

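In 64 groups of 4 arrays, 1 for each tested probe of the 10 genes in each genotype, the gap between the extreme array and its nearest neighbour was set against the group's range. Chance alone gives a gap over Dixon's critical value in about 5% of such groups, and 2 were found. The brighter Tomm40l probe read 0.77 in double-deficient replicate 2, below 1.22 to 1.30 in the other mice of that group, with a gap of 0.851 of the range. The dimmer Usf1 probe read -3.85 in wild-type replicate 1, below -2.35 to -2.20 in the other wild-type mice, with a gap of 0.908 of the range. The brighter Usf1 probe was also lowest in that mouse, at -2.63.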

How the results depend on the processing

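The number of the 10 genes called in double-deficient against Sting gt/gt kidneys was 0 under every alternative except the exact Mann-Whitney test with an unadjusted p and 2-fold, which passed 1, Cfap126. In the other 2 comparisons and the interaction it was 0 under each alternative run. Cfap126 stayed between -1.98 and -1.80 in double-deficient against Sting gt/gt kidneys over the alternatives and between -2.20 and -1.69 with an array left out, at an adjusted p of 0.537 to 0.995 by limma. In that comparison the brighter probes of Dedd, Tomm40l, and Usf1 changed sign. Dedd went from -0.09 to 0.0377 with array median scaling and to 0.313 with the median of its probes, and Tomm40l from -0.19 to 0.00371 with the median of its probes. With an array left out, Dedd ran from -0.25 to 0.024, Tomm40l from -0.36 to 0.011, and Usf1 from -0.061 to 0.48. Array median scaling moved the median of all probes from 0.01 to 0.14 in that comparison and from -0.06 to -0.21 in Fcgr2b-/- against wild-type kidneys. With normexp correction, in Fcgr2b-/- against wild-type kidneys Itln1 read 1.09, the dimmer Apoa2 probe -3.04, and the dimmer Cfap126 probe -1.73. The median of both Apoa2 probes read -2.77 there and -1.60 in double-deficient against Sting gt/gt kidneys. Replicate numbers of the labels were not taken to pair the mice. Same-numbered arrays correlated at -0.60 to 0.69 in their deviations from the group means, and 11 of 24 pairs exceeded 0.1. Other-numbered arrays correlated at -0.65 to 0.81, and 28 of 72 pairs exceeded 0.1. With the replicate block, 0 of the 10 genes were called in each comparison and Cfap126 had an adjusted p of 0.824. Over all probes, 0 were called in double-deficient against Sting gt/gt kidneys, 2 when only the groups compared were fitted, and 1 without Fcgr2b-/- replicate 1. In that comparison the smallest adjusted p of any probe was 0.223 with all arrays, and Itln1 and Adamts4 lay near background.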

Other observations

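Wild-type replicate 1 gave the lowest value of its group for 7 of the 10 genes, and Fcgr2b-/- replicate 1 the lowest for 4 and the highest for 5. Marker genes of white and brown fat had a summed log2 level of 1.84 to 6.42 in wild-type and 1.22 to 6.56 in Fcgr2b-/- kidneys, highest in replicate 1 of each. Both of these arrays also had the lowest kidney segment sums of their groups, 9.19 and 8.87. The part of fat in their values of the 10 genes was not tested. The fat sums were 0.58 to 4.02 in double-deficient and 2.09 to 4.96 in Sting gt/gt kidneys, and 8 of 8 genes were tested, with 3 lower by at least 2-fold between these groups. Mesothelial markers ran from 1.78 to 2.35 and from 1.26 to 3.12 in these groups (5 of 6 tested). Adrenal markers were tested for 3 of 7 genes and ran from -0.33 to -0.11 and from -0.76 to -0.15. In the fat, mesothelial, and adrenal lists limma called 0 genes between these groups, 0 lay at an unadjusted p under 0.05, and 0 passed the Mann-Whitney test with a 2-fold change. Among the genes most like or most opposite to Itln1, Acod1 at 3.88, Fpr1 at 3.33, and 3110045C21Rik at -2.23 were wider apart than Itln1 itself in double-deficient against Sting gt/gt kidneys. Only protein-coding genes were placed in order on chromosome 1, and the position of 3110045C21Rik was not looked up.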
